A study of Mus musculus with 36 samples.

Results

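The genes described here are the microRNA genes whose signal on a whole-transcript array of mouse lung reached a set level. Whether that signal lay above background was not tested. They were chosen by name and level: every gene whose probe set carried 1 symbol beginning with Mir and a digit, or with Mirlet, and whose mean over all arrays was 7 or more on the log2(intensity + 16) scale after quantile normalization. Of 19938 genes with 1 symbol, 300 were microRNA genes by this naming, and 171 of those reached the level. The level decided membership and is given as description. The last genes to be kept were Mir713 (7.01), Mir361 (7.01) and Mir499 (7.03), and those just below were Mir331 (6.92), Mir186 (6.92) and Mir672 (6.90). The gene table classes 168 of the 171 as microRNA genes and 3 (Mir100hg, Mir99ahg and Mir670hg) as long non-coding host transcripts, so the set holds microRNA genes rather than their hosts. A filter on dim genes at the 25th percentile of mean level (7.54) left 128 of the 171 among 14953 genes tested, and 43 fell under it.

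The lungs came from A/J and C3H mice. NNK, the tobacco-specific nitrosamine that alkylates DNA after activation by cytochrome P450 enzymes, was given by weekly injection of 100 mg/kg over 4 weeks, and treated lungs were collected 3, 6, 9 and 12 weeks after exposure, ahead of mature tumours. Untreated lungs of both strains were collected at weeks 0, 3, 6, 9 and 12. With 2 arrays for each of the 18 combinations, there were 36 arrays. The labels give no genotype beyond the strain, no age and no vehicle injection for the untreated mice, and separate animals are not stated for a group's 2 arrays, so p-values measure the spread between arrays, which may be technical.

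MicroRNAs are cut from longer transcripts. Drosha with Dgcr8 releases a hairpin in the nucleus, the exportin Xpo5 carries it out with Ran, Dicer trims it, and an Argonaute protein keeps a single strand, whose seed (bases 2 to 8) pairs with target messages. Many of these genes lie inside introns of host genes and others form clusters from 1 primary transcript. In lung, miR-126 marks endothelium, miR-143 and miR-145 smooth muscle, the miR-200 family epithelium, and miR-34 and miR-449 the multiciliated cells. The probe sets were annotated to the hairpin genes, and whether their signal came from the primary transcript, the hairpin or the mature strand was not tested.

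Deposited median intensities ranged from 285 to 347 over the 36 arrays. The lung markers Sftpc, Sftpb, Scgb1a1 and Ager had a mean log2 level of 13.52 to 13.69 in every array. Cornified skin genes were high in the untreated A/J pair of week 6, where Lor reached 12.74 and 13.59 and Krt1 14.37 and 14.77. In 1 untreated A/J array of week 0 Lor reached 13.65, while Krt1 was at 9.27, against 9.39 in the other array of that week. Lor lay at 6.82 to 7.40 elsewhere. The array of week 0 with high Lor is called the week 0 array with skin genes below, a name that rests on Lor. Skeletal muscle genes were also highest in that array of week 0. Main counts are therefore also given without week 6 of both strains and that array. These are lungs as a whole, so fewer cells of a type and less RNA per cell cannot be told apart.

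The mature sequences below belong to the genes that the comparisons turn on, with the seed in capitals; they are RefSeq entries of GRCm38.p6, written 5′ to 3′. The first 4 genes fell with NNK in A/J lungs whichever array was left out.
miR-423-5p: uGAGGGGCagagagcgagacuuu
miR-199b-3p: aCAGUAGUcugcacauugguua
miR-125a-5p: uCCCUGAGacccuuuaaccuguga
miR-185-3p: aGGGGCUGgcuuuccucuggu
They lie at chr11:77078122-77078144 on the minus strand, chr2:32318524-32318545 and chr17:17830817-17830840 on the plus strand, and chr16:18327405-18327425 on the minus strand. The hairpins of Mir423, Mir125a and Mir185 lie within the protein-coding genes Nsrp1, Spaca6 and Tango2 on the same strand.

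A further pair of genes that fell with NNK belong to the miR-181 family, known for its part in lymphocyte development, and share the seed ACAUUCA with Mir181a-2 and Mir181b-2.
miR-181b-5p: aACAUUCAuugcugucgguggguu
miR-181d-5p: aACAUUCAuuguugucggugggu
The copy of Mir181b-1 lies at chr1:137966650-137966673 on the plus strand and that of Mir181d at chr8:84178759-84178781 on the minus strand. Apart from the shared seed they come from separate loci.

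The next sequences belong to genes that moved over the weeks in untreated A/J lungs.
miR-26a-5p: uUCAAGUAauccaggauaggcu
miR-26b-5p: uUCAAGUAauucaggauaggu
miR-126a-3p: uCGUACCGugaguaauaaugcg
miR-128-3p: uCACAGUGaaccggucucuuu
Mir26a-1 (chr9:119031811-119031832, plus strand, within Ctdspl) and Mir26b (chr1:74394324-74394344, plus strand, within Ctdsp1) share a seed. Mir126a lies at chr2:26591402-26591423 on the plus strand within the endothelial gene Egfl7, and the 3p strand of Mir128-1 at chr1:128202404-128202424 on the plus strand within R3hdm1.

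The genes with the largest difference between the strains were copies of miR-680. Their hairpins are shown because 3 loci share 1 mature sequence, which is in capitals here.
Mir680-1: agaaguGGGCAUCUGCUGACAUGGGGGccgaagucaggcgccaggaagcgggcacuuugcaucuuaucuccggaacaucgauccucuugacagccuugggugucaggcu
Mir680-2: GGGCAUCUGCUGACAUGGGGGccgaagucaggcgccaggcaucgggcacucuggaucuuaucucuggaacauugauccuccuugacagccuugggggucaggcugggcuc
Mir680-3: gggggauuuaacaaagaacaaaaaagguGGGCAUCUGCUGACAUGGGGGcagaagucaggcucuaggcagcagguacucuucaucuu
They lie at chr6:129691535-129691643 and chrX:144297790-144297899 on the plus strand and at chr12:35194811-35194897 on the minus strand. Over the 59 bases from the start of the mature sequence, Mir680-1 and Mir680-2 had 55 bases in common, and Mir680-3 had 51 in common with each of the others. With copies this alike, the array may not separate them, and their values are uncertain as values of single loci.

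**Figure D1:**
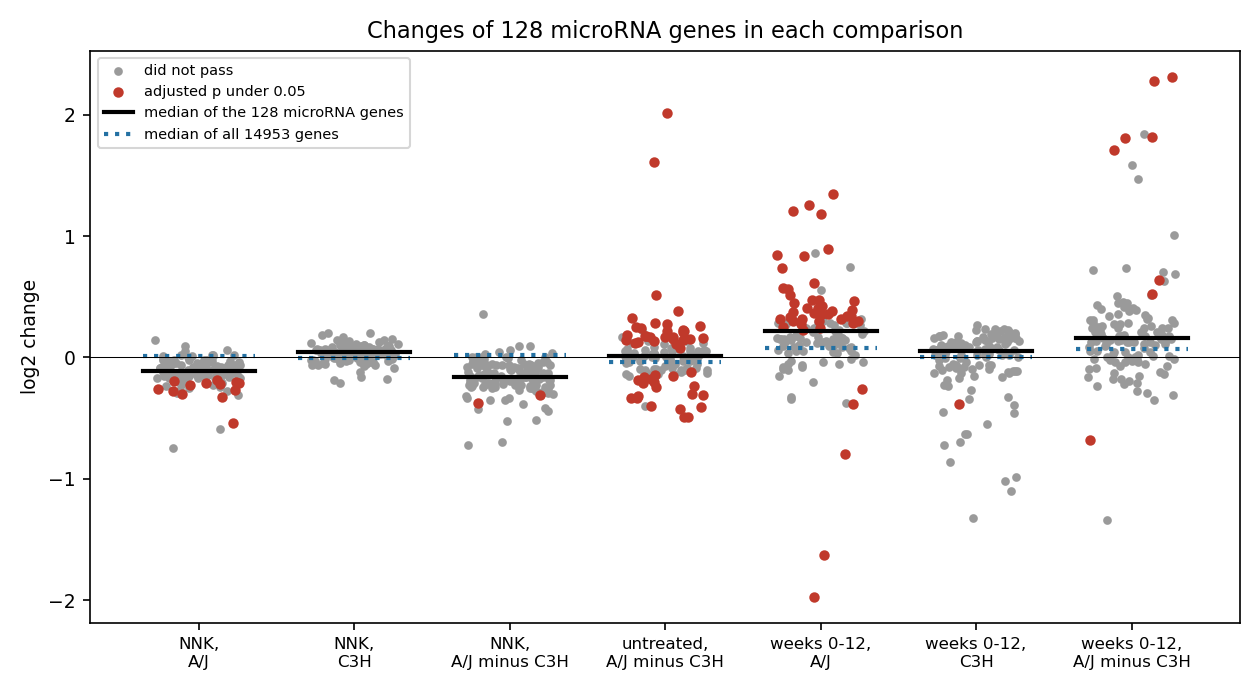
Each point is the log2 change of 1 of the 128 microRNA genes tested (vertical axis) in each of 7 comparisons; red points passed an adjusted p of 0.05, black bars are medians of the microRNA genes and dotted bars medians of all 14953 genes. In A/J the NNK changes centred at -0.11, against 0.01 for all genes, and the week changes at 0.22, against 0.07.

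MicroRNA gene signals were lower by small amounts in A/J lungs after NNK. Averaged over weeks 3 to 12, 13 of 128 genes fell and 0 rose, while 10% of all genes tested passed, 7.44% higher and 2.6% lower. The changes of the 13 ran from -0.18 to -0.54 on the log2 scale, and none reached 1.5-fold. Whether passing or not, 116 of the 128 had a lower mean with NNK (median log2 change -0.11), whereas 6478 of all 14953 genes did (median 0.01). Over all 171 members without the filter, 144 were lower. Of these members 0 passed as higher and 12 as lower, where 6.78% of all genes passed in either direction. The unadjusted p was under 0.05 for 40 of the 128.

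Mir423, whose hairpin lies within the splicing regulator gene Nsrp1, had the smallest p. Its log2 level in the 8 untreated A/J arrays of weeks 3 to 12 was lowest at 8.59, with a median of 8.68 and a highest value of 8.87, and in the 8 NNK arrays 8.37, 8.47 and 8.64. The groups overlapped at their edges. It fell by 0.19 ± 0.04 (SE; limma with Benjamini-Hochberg adjustment, adjusted p = 0.0036), and the difference was negative in all 4 weeks (-0.20, -0.19, -0.25 and -0.12).

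Mir199b, of the mesenchymal miR-199 family, ranged from 8.04 to 8.62 untreated (median 8.44) and from 7.97 to 8.31 with NNK (median 8.17). It fell by 0.22 ± 0.05 (adjusted p = 0.0070, limma). The weekly differences were -0.05, -0.29, -0.31 and -0.22, so week 3 contributed little.

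Mir125a, which carries the seed of the lin-4 family, ranged from 7.92 to 8.42 untreated (median 8.19) and from 7.88 to 8.11 with NNK (median 7.97). It fell by 0.21 ± 0.05 (adjusted p = 0.013, limma). Its weekly differences were -0.03, -0.25, -0.36 and -0.19.

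Mir185 ranged from 9.02 to 9.64 untreated (median 9.35) and from 8.88 to 9.27 with NNK (median 9.12). It fell by 0.26 ± 0.06 (adjusted p = 0.014, limma), with weekly differences of -0.13, -0.33, -0.21 and -0.38. In each of these 4 genes the NNK arrays lay in the lower part of the untreated range or under it.

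Mir181b-1 had the largest fall of the 13, 0.54 ± 0.16 (adjusted p = 0.032, limma), and the widest spread. The 8 NNK arrays ran from 7.66 to 9.07 (median 8.54) and the untreated ones from 8.62 to 9.34 (median 9.02), so 3 NNK arrays near 7.66, 7.84 and 7.88 lay far below the others. Mir181d of the same family fell by 0.33 ± 0.09 (adjusted p = 0.026). The other tested members of the family, Mir181c and Mir181b-2, had changes of -0.14 (adjusted p = 0.097) and -0.02 (adjusted p = 0.87).

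The 7 remaining genes that fell were Mir194-2 (-0.20), Mir484 (-0.18), Mir30c-2 (-0.23), Mir328 (-0.27), Mir15a (-0.30), Mir483 (-0.21) and Mir326 (-0.27). Mir15a belongs to the miR-15/16 family, which represses Bcl2, and Mir483 lies within the growth factor gene Igf2. Their untreated and NNK arrays overlapped in every case, and the adjusted p-values lay between 0.031 and 0.046. In Mir194-2 and Mir484 the difference at week 3 was positive (0.23 and 0.08), and the falls came from weeks 6 and 9 (-0.60 and -0.35 for Mir194-2).

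**Figure D2:**
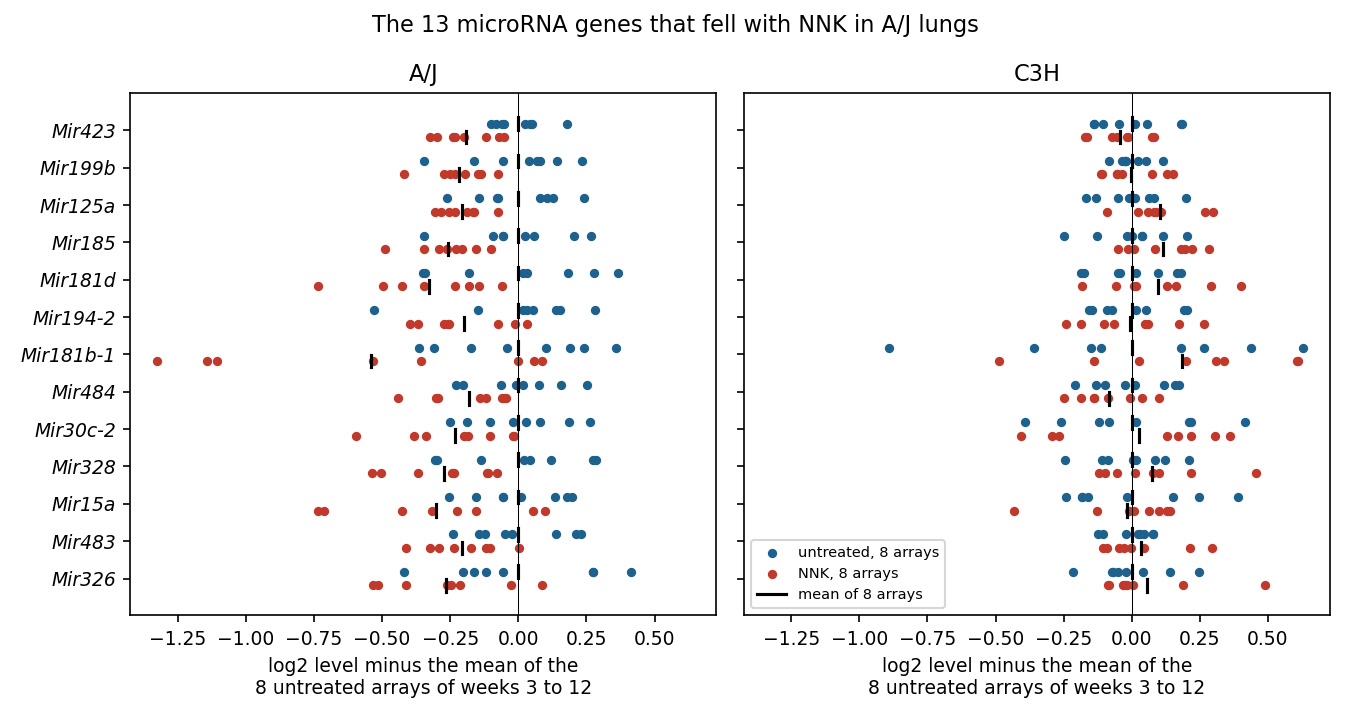
Each row is 1 of the 13 microRNA genes that fell in A/J; the horizontal axis is the log2 level minus the mean of the 8 untreated arrays of weeks 3 to 12, blue for untreated and red for NNK arrays, with black ticks at means of 8. In A/J the NNK means lie 0.18 to 0.54 below the untreated means; in C3H they lie on both sides, and 0 of the 13 passed there.

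The count in A/J rested on single arrays. Without 1 of the untreated week 3 arrays (replicate 2) 36 genes passed, and without the other (replicate 1) 4 did. Untreated arrays of week 6 (replicate 1, 4 genes) and week 12 (replicate 1, 21; replicate 2, 6) and NNK arrays of week 3 (replicate 2, 4), week 6 (replicate 1, 8), week 9 (replicate 2, 5) and week 12 (8 without either) also moved it by over 1.5 times. Mir423, Mir199b, Mir125a and Mir185 passed in each of the 36 fits. Without week 6 and the untreated array of week 0 with skin genes, 1 of the 13 passed: Mir423 (-0.19, adjusted p = 0.020, limma), and Mir199b, Mir125a and Mir185 kept changes of -0.19, -0.19 and -0.24 with adjusted p of 0.090, 0.093 and 0.099. With weeks 3 and 12 alone 0 passed.

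The mean deviation of the 128 genes from their own means shows the same arrays. Over the 8 untreated A/J arrays of weeks 3 to 12 it ran from -0.16 to 0.17 (median 0.09), and over the 8 NNK arrays from -0.20 to 0.02 (median -0.05). The groups overlapped: the lowest untreated array was of week 3. In C3H it ran from -0.12 to 0.11 untreated and from -0.08 to 0.20 with NNK. Beside this, the 5 tested cornified skin genes fell with NNK in A/J (median -1.33), 3 of 8 endothelial genes fell, and 6 of 6 ciliated-cell genes, 9 of 12 p53 targets, 2 of 6 neutrophil and 2 of 4 macrophage genes rose. Their part in the microRNA result was not tested.

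**Figure D3:**
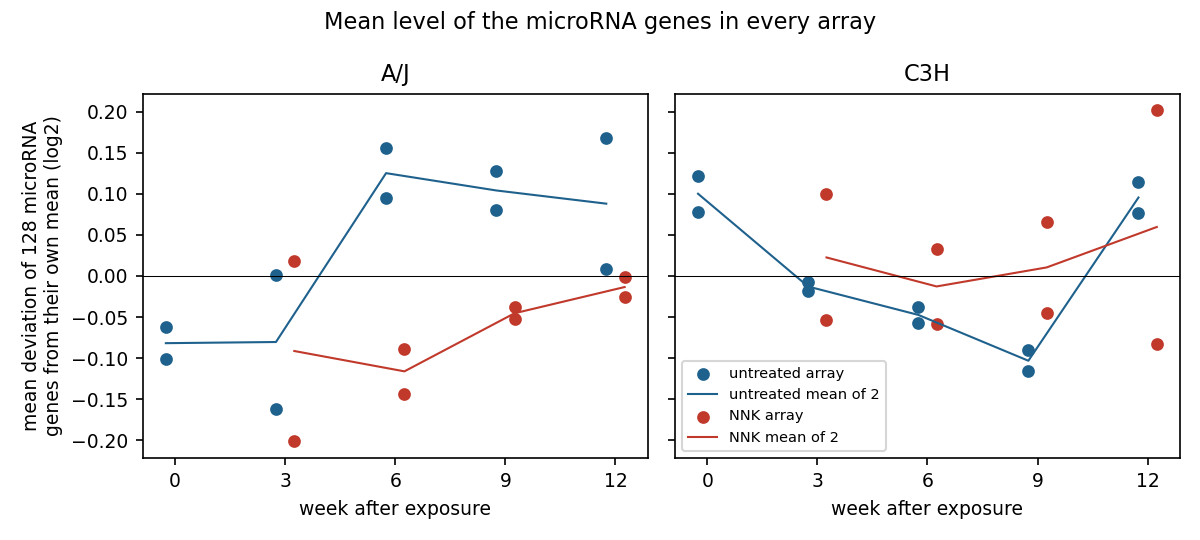
Mean log2 deviation of the 128 microRNA genes from their own means (vertical axis) in each array by week after exposure, A/J on the left and C3H on the right, untreated in blue and NNK in red; lines join means of 2 arrays. The A/J untreated arrays of weeks 6 and 9 lie between 0.08 and 0.16, above the 8 NNK arrays, while 1 untreated array of week 3 lies at -0.16.

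In C3H lungs 0 of 128 microRNA genes passed with NNK, where 0.0803% of all genes did; 4 had an unadjusted p under 0.05 by limma, and each of the 48 other fits likewise gave 0. The mean was higher with NNK for 95 and lower for 33 (median 0.05, against -0.01 for all genes). The smallest p belonged to Mir505, at 11.05 to 11.61 in the untreated arrays of weeks 3 to 12 (median 11.22) and 10.81 to 11.31 with NNK (median 11.05), a change of -0.18 ± 0.05 (adjusted p = 0.44). Mir30b (-0.18), Mir151 (-0.21), Mir296 (0.14) and Mir668 (0.09) followed with adjusted p of 0.69 to 0.80. The 4 genes that held best in A/J had C3H changes of -0.04 (Mir423), -0.00 (Mir199b), 0.10 (Mir125a) and 0.11 (Mir185).

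The difference between the strains in the NNK change was tested in the same fit. It passed for 2 of 128 genes, both with a negative difference, where 1.13% of all genes did, 1% higher and 0.127% lower. They were Mir125a (-0.31 ± 0.07, adjusted p = 0.039) and Mir185 (-0.37 ± 0.09, adjusted p = 0.047). Whether passing or not, 116 of the 128 had a negative difference (median -0.16), against 6174 of all 14953 genes (median 0.02). Mir125a was at 7.92 to 8.42 in untreated and 7.88 to 8.11 in NNK-treated A/J lungs, and at 7.76 to 8.13 and 7.84 to 8.23 in C3H. Mir185 was at 9.02 to 9.64 and 8.88 to 9.27 in A/J, and at 8.82 to 9.27 and 9.02 to 9.35 in C3H, so the untreated A/J arrays held the highest values of both genes. Mir181d (-0.42), Mir181b-1 (-0.72) and Mir199b (-0.22) came next with adjusted p of 0.10 to 0.11. Without 1 untreated A/J array of week 3 (replicate 2) 13 genes passed, and without replicate 1 of week 12 there were 6. Both calls were lost without week 6 and the week 0 array (adjusted p = 0.27 and 0.30). Leaving out 1 array in turn lost the first call in 18 of 36 fits and the second in 23, and the changes stayed between -0.36 and -0.27 and between -0.41 and -0.34.

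Families are given by their counts, to be read against the 116 of 128 microRNA genes with a lower mean. Of the 15 tested microRNA genes of the imprinted Dlk1-Dio3 cluster, which is transcribed from the maternal chromosome, 15 had lower means with NNK in A/J (median -0.14, range -0.23 to -0.02), and 0 passed. Meg3, the maternally expressed long RNA of that locus, rose by 0.42 (adjusted p = 0.0068, limma), while Dlk1, expressed from the paternal chromosome, had a change of -0.13 (adjusted p = 0.072). In C3H 14 of the 15 were higher (median 0.06), and Meg3 had a change of 0.14 (adjusted p = 0.87). Of the 5 miR-30 genes 5 had lower means in A/J, of which Mir30c-2 passed. The smooth muscle genes Mir143 and Mir145a had changes of -0.31 and -0.26 in A/J and 0.20 and 0.15 in C3H, none of which passed. The p53 targets Mir34b and Mir34c lay under the filter on dim genes; without it their changes in A/J were 0.024 (adjusted p = 0.83) and 0.062 (adjusted p = 0.63).

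Host genes gave a separate reading of the same loci. Of 142 members with a hairpin in the sequence table, 74 lay within another gene on the same strand, 58 of these in protein-coding genes, and 34 tested members had a tested host (28 hosts). With NNK in A/J, 32 of the 34 members had lower means (median -0.10), against 11 of the 28 hosts (median 0.01). Tango2 changed by -0.03 where Mir185 fell by 0.26, Nsrp1 by -0.04 where Mir423 fell by 0.19, and Spaca6 by 0.04 where Mir125a fell by 0.21; none of the 3 hosts passed. The replication licensing gene Mcm7 rose by 0.23 (adjusted p = 0.048, limma) while Mir25, Mir93 and Mir106b in its intron had changes of -0.11, -0.06 and -0.04. Cdc20b, of multiciliated cells, rose by 0.28 (adjusted p = 0.0073) while Mir449c in it had a change of -0.17, which did not pass. None of the 4 called members with a tested host had a host that passed, and 7 of all 28 tested hosts did.

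Untreated A/J and C3H lungs differed in 51 of 128 microRNA genes, 31 higher and 20 lower in A/J, while 56.1% of all genes differed, 19.8% higher and 36.3% lower. The median over the microRNA genes was 0.01 and over all genes -0.04. These values, the NNK change in A/J and the week trends share untreated arrays, so the comparisons are not independent of each other. All but 2 of the 51 differences were under 1.5-fold.

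Mir680-2 and Mir680-1 had the largest differences. Mir680-2 ranged from 9.50 to 11.77 over the 10 untreated A/J arrays (median 10.87) and from 8.05 to 9.89 in C3H (median 8.42), and was 2.01 ± 0.22 higher in A/J (adjusted p = 5.3e-08, limma). Mir680-1 ranged from 8.68 to 12.30 (median 10.10) and from 8.44 to 9.38 (median 8.63), a difference of 1.61 ± 0.33 (adjusted p = 0.00026). In both genes the ranges overlapped.

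The A/J arrays disagreed within a week. At weeks 0, 3, 6, 9 and 12 the pairs for Mir680-1 were 12.14 and 10.54, 12.30 and 9.03, 11.38 and 9.20, 11.41 and 9.66, and 9.20 and 8.68. The Mir680-2 pairs were 11.71 and 11.77, 11.52 and 9.50, 11.26 and 9.63, 11.27 and 10.48, and 9.51 and 9.54. The arrays low in one copy at weeks 3 and 6 were low in the other. The 8 NNK-treated A/J arrays lay at 8.89 to 10.30 for Mir680-1, against 8.32 to 8.70 in NNK-treated C3H. The third copy, Mir680-3, differed less (0.25 ± 0.09, adjusted p = 0.029), with ranges of 9.66 to 10.62 in A/J and 9.81 to 10.21 in C3H.

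Mir6516, which lies within the small nucleolar RNA host gene Snhg20, had the smallest p. It ranged from 8.27 to 9.02 in A/J (median 8.73) and from 8.16 to 8.39 in C3H (median 8.29), and was 0.38 ± 0.04 higher in A/J (adjusted p = 1.5e-08, limma). Only the lowest A/J array fell within the C3H range.

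Lower in A/J were Mir694 (-0.33 ± 0.04), Mir687 (-0.49 ± 0.07), Mir505 (-0.31 ± 0.05), Mir568 (-0.41 ± 0.07) and Mir670 (-0.49 ± 0.09), with adjusted p from 3.5e-07 to 0.00011. Mir687 ranged from 7.18 to 7.81 in A/J (median 7.38) and from 7.64 to 8.24 in C3H (median 7.84), so 1 A/J array reached into the C3H range. Mir505 ranged from 10.78 to 11.16 (median 10.96) and from 11.05 to 11.61 (median 11.23). Mir670 ranged from 7.38 to 8.24 and from 7.91 to 8.62.

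**Figure D4:**
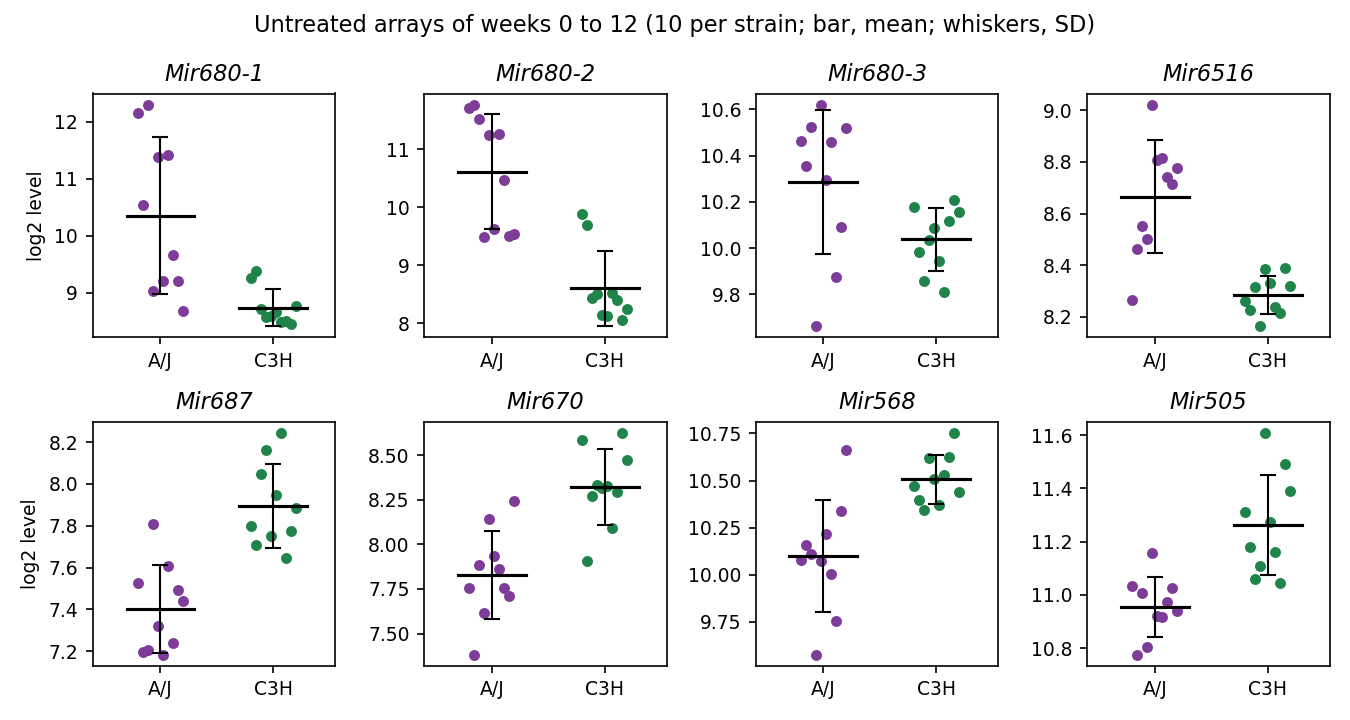
Log2 levels (vertical axis) of 8 microRNA genes in the 10 untreated arrays of each strain, weeks 0 to 12; horizontal bars are means and whiskers SD. Mir680-1 spreads from 8.68 to 12.30 and Mir680-2 from 9.50 to 11.77 in A/J, whereas Mir6516 lies at 8.27 to 9.02 in A/J and 8.16 to 8.39 in C3H.

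Host transcripts went both ways. The host transcript Mir99ahg, which carries miR-99a, let-7c and miR-125b, was 0.17 higher in A/J, and Mir99a was 0.33 higher; Mir100hg, its paralogous host, was 0.20 lower in A/J. Mir342 and its host Evl, an actin regulator, were both lower (-0.30 and -0.33), as were Mir26a-1 and Ctdspl (-0.40 and -0.21), Mir491 and Focad (-0.31 and -0.27). Mir423 and Nsrp1 were both higher (0.15 and 0.19). The endothelial pair split: Mir126a was lower in A/J (-0.42 ± 0.15) and Egfl7 higher (0.21). Mir128-1 was higher (0.28) and R3hdm1 lower (-0.33). Over the 11 called members with a tested host, the host passed in the same direction for 4 and in the opposite direction for 2. Of all 28 tested hosts 15 passed, where 56.1% of all genes did. Pearson's r between member and host differences across the 34 pairs was 0.05.

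Among the families, Mir200a of the epithelial miR-200 genes (0.18), Mir449c of multiciliated cells (0.17), Mir150 of lymphocytes (0.17), Mirlet7e (0.15) and Mirlet7i (0.16) were higher in A/J. Other tested genes of these groups did not pass: Mir200c, Mirlet7d, and Mir146b and Mir155, which were grouped with Mir150 as leukocyte genes. Without the filter on dim genes, Mir200b (-0.07), Mir449a (-0.06) and Mirlet7a-1 (-0.10) did not pass, and Mirlet7c-1 (0.30) was higher. In the same comparison 5 of 6 ciliated-cell, 3 of 4 B-cell and 4 of 5 cornified skin genes were higher in A/J. Of 8 endothelial genes 6 were higher and 1 lower, and of 8 heart muscle genes 5 were higher and 1 lower. Of 5 smooth muscle genes 4 were lower and 1 higher, and of 4 macrophage genes 3 were lower and 1 higher. T-cell genes (1 higher and 1 lower of 5) and neutrophil genes (2 higher and 1 lower of 6) were mixed. The part of these marker genes was not tested. Also higher were Mir30b, Mir129-1, Mir185, Mir181b-1, Mir615, Mir92b, Mir125a, Mir666, Mir194-2, Mir598, Mir15a, Mir375, Mir695, Mir187, Mir320, Mir296, Mir138-1 and Mir673, by 0.08 to 0.52. Also lower were Mir106b, Mir30c-2, Mir181b-2, Mir199a-1, Mir132, Mir504, Mir7-2, Mir151, Mir24-2 and Mir674, with changes from -0.34 to -0.12. Of the 51 differences, 31 passed in each fit that left out 1 array, and 25 passed without week 6 and the week 0 array with skin genes.

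Many microRNA gene signals rose over 12 weeks in untreated A/J lungs. The linear trend passed for 44 of 128 genes, 39 rising and 5 falling, while 22.8% of all genes passed, 17.5% rising and 5.27% falling. The median change over 12 weeks was 0.22, against 0.07 for all genes; 12 passing genes changed at least 1.5-fold and 6 at least 2-fold. Without quantile normalization 15 genes passed, 11 rising and 4 falling, with a median of 0.09; of all genes 749 then rose and 1096 fell, against 2622 and 788, so count and split depend on the scaling. Without week 6 and the week 0 array with skin genes 18 passed, and without replicate 2 of week 0 or of week 12 the count was 23 or 19. Of the 44, 13 passed in each fit that left out 1 array, and 8 in these and in every other setting tried: Mir26a-1, Mir200a, Mir323, Mir25, Mir129-1, Mir325, Mir6516 and Mir128-1.

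After Mir26a-1, the largest rises were those of Mir143, Mir145a and Mir126a, genes of smooth muscle and endothelium. Mir126a stood at 6.64 and 6.87 at week 0, 7.20 and 8.10 at week 3, 6.52 and 7.56 at week 6, 8.23 and 8.20 at week 9, and 8.25 and 7.65 at week 12, a rise of 1.18 ± 0.29 over 12 weeks (adjusted p = 0.0073, limma). Its host Egfl7 rose by 0.36 (adjusted p = 0.0045, limma). Of 8 endothelial marker genes, Egfl7 among them, 2 passed, both upwards, where 17.5% of all genes rose. Egfl7 was 1 of these 2.

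Mir145a stood at 9.51 and 9.21, 9.37 and 10.36, 9.75 and 9.81, 11.10 and 11.26, and 10.22 and 10.21 over the same weeks, a rise of 1.21 ± 0.33 (adjusted p = 0.012). Mir143, of the same transcript, rose by 1.26 ± 0.34 (adjusted p = 0.012). Both were highest at week 9, and the 2 NNK-treated A/J arrays of that week were the highest treated ones (10.96 and 11.41 for Mir145a). The smooth muscle marker Myh11 changed by 0.09 and Acta2 by -0.24, and 0 of 5 smooth muscle markers passed.

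Mir26a-1 stood at 7.40 and 7.12, 7.35 and 7.88, 7.23 and 7.70, 8.90 and 9.07, and 8.35 and 8.17, a rise of 1.35 ± 0.23 (adjusted p = 0.00040). All 4 arrays of weeks 9 and 12 lay above the 6 earlier ones. Mir26b, with the same seed, rose by 0.45 (adjusted p = 0.028), while the hosts Ctdspl (0.15, adjusted p = 0.051) and Ctdsp1 (-0.09) did not pass.

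Mir200a, which holds epithelial cells in their state by repressing Zeb factors, rose by 0.84 ± 0.13 (adjusted p = 0.00021), from 7.54 and 7.37 at week 0 to 8.19 and 8.27 at week 12. Mir25, of the Mcm7 cluster, rose by 0.62 ± 0.11 (adjusted p = 0.00071), from 7.56 and 7.41 to 8.02 and 8.23, and Mir93 by 0.30; Mir106b of that cluster had a change of -0.08 and Mcm7 of 0.09, which did not pass. Mir23a, clustered with Mir27a and Mir24-2, rose by 0.89 ± 0.30. Mir181b-1 rose by 0.85 ± 0.28.

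Of the imprinted Dlk1-Dio3 cluster, 5 of 15 tested microRNA genes rose in A/J, against 39 of all 128 and 17.5% of all genes tested. They were Mir323 (0.74), Mir431 (0.57), Mir127 (0.41), Mir666 (0.36) and Mir337 (0.33). Meg3 had a change of -0.09 (adjusted p = 0.73), and Dlk1 rose by 0.31 (adjusted p = 0.011, limma). The other risers were Mir6516, Mir325, Mir129-1, Mir146b, Mir129-2, Mir199b, Mir491, Mir484, Mir194-1, Mir132, Mir187, Mir695, Mir196b, Mir188, Mir99b, Mir365-2, Mir128-2, Mir125a, Mir107, Mir194-2, Mir152, Mir375, Mir15a and Mir30c-2, by 0.22 to 0.57. Mir146b restrains NF-kB signalling and Mir196b lies in a Hox cluster.

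The 5 that fell were Mir128-1 (-0.79 ± 0.12, adjusted p = 0.00014, limma), Mir680-2 (-1.63), Mir680-1 (-1.97), Mir30d (-0.38) and Mir100hg (-0.26). Mir128-1 stood at 8.92 and 8.78 at week 0, 8.50 and 8.22 at week 3, 8.19 and 7.85 at week 6, 8.19 and 8.06 at week 9, and 7.97 and 7.98 at week 12. Its highest values were thus the pair of week 0. Mir128-2, whose mature 3p strand has the same seed, rose by 0.39. R3hdm1, the host of Mir128-1, had a change of -0.17 (adjusted p = 0.066).

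In untreated C3H lungs 1 of 128 passed, where 0.863% of all genes did (0.548% falling), and 19 had an unadjusted p under 0.05. Mir100hg, the host transcript of miR-100, let-7a-2 and miR-125b-1, fell by 0.39 ± 0.08 over 12 weeks (adjusted p = 0.014, limma), from 9.74 and 9.60 at week 0 through 9.64 and 9.61, 9.51 and 9.34, and 9.33 and 9.36 to 9.25 and 9.41 at week 12. The arrays of weeks 0 and 3 all lay above those of weeks 6 to 12. The call was lost without replicate 1 of week 0 (-0.33, adjusted p = 0.16) and without replicate 1 of week 12 (-0.32, adjusted p = 0.18). Mir99a (-0.55), Mir145a (-1.10), Mir218-1 (-0.34) and Mir181b-1 (-0.86) came next with adjusted p of 0.11 to 0.16.

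The difference between the strains in the week trend, a contrast added after the data were seen, passed for 8 of 128 genes, where 1.32% of all genes did, 1.1% higher and 0.221% lower. Higher in A/J were Mir145a (2.31 ± 0.46), Mir143 (2.28 ± 0.48), Mir126a (1.82 ± 0.42), Mir26a-1 (1.81 ± 0.32), Mir181b-1 (1.71 ± 0.40), Mir218-1 (0.64 ± 0.16) and Mir325 (0.52 ± 0.13), and lower was Mir128-1 (-0.68 ± 0.17), with adjusted p from 0.0062 to 0.045 by limma.

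The strains ran opposite ways in the first 5. Mir145a in C3H stood at 10.90 and 11.26 at week 0, 10.91 and 10.24 at week 3, 9.73 and 9.74 at week 6, and 9.59 and 9.50 at week 9, with a mean of 10.2 at week 12. At week 0 the C3H pair lay above the A/J pair (9.51 and 9.21), and at week 9 the A/J pair (11.10 and 11.26) lay above the C3H pair. Mir126a in C3H went from 8.30 and 8.70 at week 0 to 7.61 and 7.67 at week 9. Mir26a-1 went from 8.46 and 8.97 to 7.67 and 7.70, and Mir181b-1 from 9.05 and 9.09 to 7.79 and 7.26, in C3H over those weeks. None of these C3H trends passed on its own.

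Mir26a-1 passed in each of the 36 fits that left out 1 array (changes of 1.60 to 2.01). Without week 6 and the week 0 array with skin genes it was the 1 gene of the 8 that passed (1.70, adjusted p = 0.047), and Mir145a, Mir143 and Mir126a kept changes of 2.20, 2.18 and 1.91 with adjusted p of 0.088, 0.098 and 0.055. The count ran from 1 to 14 over the fits that left out 1 array, with 1 without the untreated arrays A/J week 0 replicate 2, C3H week 0 replicate 2 or C3H week 12 replicate 1. It was 14 and 13 without A/J week 3 replicate 2 and week 9 replicate 1, 3 without A/J week 9 replicate 2 or C3H week 3 replicate 1, and 4 or 5 without 8 other arrays (both A/J arrays of week 12, A/J and C3H week 0 replicate 1, C3H week 9 replicate 1, C3H week 12 replicate 2 and both NNK-treated C3H arrays of week 6).

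**Figure D5:**
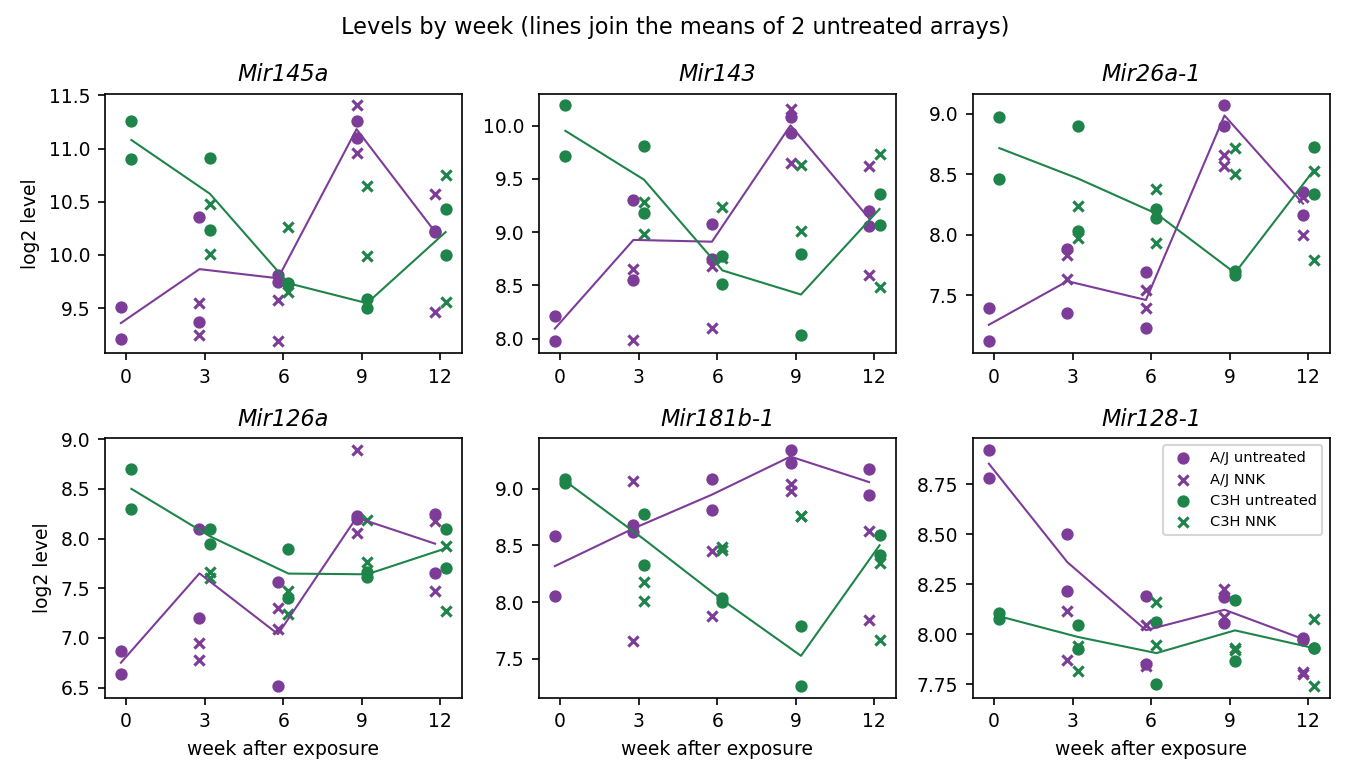
Log2 levels (vertical axis) of 6 microRNA genes by week after exposure, A/J in purple and C3H in green, dots for untreated and crosses for NNK arrays; lines join means of 2 untreated arrays. Mir145a, Mir143, Mir26a-1 and Mir126a are highest in A/J at week 9 or 12 and in C3H at week 0, and Mir128-1 starts at 8.92 and 8.78 in A/J.

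Few genes of the microRNA machinery passed with NNK. Of 36 tested, Ran (0.24 ± 0.05, adjusted p = 0.0022, limma), the GTPase of nuclear export, and Ddx20 (0.16 ± 0.05, adjusted p = 0.037), an Argonaute-associated helicase, rose in A/J. Of the 36, 0 fell, and the median was 0.00, while 10% of all genes passed. In C3H 0 passed, where 0.0803% of all genes did. Between untreated strains 10 were higher in A/J, with Ddx17 (0.27), Ddx5 (0.20) and Dgcr8 (0.11) of the nuclear complex. Another 12 were lower, with Drosha itself (-0.24), Xpo5 (-0.08) and Ago3 (-0.19). Of all genes 19.8% were higher and 36.3% lower in that comparison. Over 12 weeks in A/J, Ago1 (0.17), Adarb1 (0.20) and Tsnax (0.20) rose, where 22.8% of all genes passed. In C3H 0 passed over the weeks, where 0.863% did.

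Small nucleolar and Cajal body RNA genes, the other short RNA genes on the array, gave other values with NNK and between strains. Many of them also rose over the weeks in A/J. Of 43 tested at the same level, 2 rose and 1 fell with NNK in A/J (median -0.01, 22 lower). Of all genes 7.44% rose and 2.6% fell there. Between untreated strains 30 were higher and 1 lower in A/J (median 0.30), where 19.8% of all genes were higher and 36.3% lower. Over 12 weeks in A/J 20 rose (median 0.41), against 39 of the 128 microRNA genes (median 0.22) and 17.5% of all genes. The difference between the 2 kinds of gene was not tested.

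Tests without the filter reached the 43 dimmer members. With NNK in A/J, Mir298 (-0.27, adjusted p = 0.0017, limma), Mirlet7c-1 (-0.38, adjusted p = 0.018) and Mir92-2 (-0.15, adjusted p = 0.034) fell. Thus 3 of 43 fell and 0 rose, where 6.78% of all genes passed in either direction. The strain difference in NNK change passed for Mir92-2 (-0.31, adjusted p = 0.023) and Mir298 (-0.32, adjusted p = 0.037), where 0.487% of all genes passed, and that in week trend for Mir19b-2 (-0.95, adjusted p = 0.018) and Mir200b (1.25, adjusted p = 0.027), where 1.65% did. Between untreated strains 6 were higher and 12 lower in A/J, led by Mir361 (0.38) and Mir497 (-0.36), where 50% of all genes passed. Over 12 weeks in A/J 12 rose and 3 fell, where 26.5% passed, led by Mir9-1 (0.68), Mir219a-2 (0.64) and Mir200b (1.17), which shares its cluster with Mir200a. In all, 80 of the 128 members above the filter passed in at least 1 comparison, and 48 in none.

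The median residual SD was 0.143 for the 128 microRNA genes and 0.0961 for all genes tested. Across the 103 tested members with a hairpin sequence, which share the same arrays, Pearson's r between hairpin GC content and the change was -0.07 for NNK in A/J, 0.18 for NNK in C3H and -0.14 for their difference. Between mean level and the change it was -0.19 for NNK in A/J and -0.28 for the A/J week trend. The part of GC content and level in the results was not tested.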

How the data were processed

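Total RNA of 36 mouse lung samples was hybridised to the Mouse Gene 1.0 ST array of Affymetrix. The deposited values are linear intensities that the authors made; PLIER and the Affymetrix Expression Console are named per the submitters' processing notes, and versions are not given in the sources used here. Probe sets were named through the platform annotation (35556 probe sets, of which 21789 had 1 gene symbol, 1621 several and 12146 none). Here the deposited intensities were turned into log2(value + 16) and quantile-normalized, and the brightest probe set was kept per gene. Groups came from the labels: 18 groups of 2 arrays, whose number limits the precision.

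limma 3.58.1 in R 4.3.3 was fitted with a mean per group (18 residual degrees of freedom) on 14953 genes (mean level not under the 25th percentile), with Benjamini-Hochberg adjustment over all of them and a threshold of 0.05. The contrast for the difference in week trend was added after seeing the data, as were an array-median covariate and a fit of weeks 3 and 12 alone. The fit was tested on simulated data. Alternatives changed the pseudocount, normalization, filter, probe set rule, variances, weights and arrays used. Named with values are members that passed in any comparison, the 5 smallest p where fewer than 5 passed, and members of groups with a described role. The members and gene lists were chosen with earlier results of these data known, and Mir673 was placed in the Dlk1-Dio3 group by its position after its values were seen. Replicate numbers were not used to pair the arrays in the main fit. Sequences and hairpin positions are from RefSeq (GRCm38.p6), which held 142 of the 171 members. Probe sequences were not used here.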

Additional observations from a re-analysis of the deposited data

Results flagged for a closer look

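In 320 groups of 8 or 10 arrays, 11 held an array far from the rest, where chance gives about 1 in 20 groups. In untreated A/J lungs Mir150 reached 9.17 (next 8.69) and Mirlet7e 9.24 (next 8.83) in the same array of week 9, and Mir342 reached 8.52 (next 8.17). In NNK-treated A/J lungs Mir337 reached 8.13 (next 7.98) and Mir670 went down to 7.12 (next 7.55). In untreated C3H lungs Mir129-1 reached 8.50 (next 8.38). In NNK-treated C3H lungs Mir187 reached 8.92 (next 8.62) and Mir504 reached 8.33 (next 8.09) in the same array of week 12, while Mir15a went down to 8.73 (next 9.04), Mir26b to 9.18 (next 9.56) and Mir674 to 8.63 (next 9.00).

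The NNK change differed between the strains by limma in Mir125a (-0.31) and Mir185 (-0.37), A/J minus C3H. The change over 12 weeks in untreated lungs differed between the strains in Mir145a (2.31), Mir143 (2.28), Mir126a (1.82), Mir26a-1 (1.81), Mir181b-1 (1.71), Mir218-1 (0.64), Mir325 (0.52) and Mir128-1 (-0.68).

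Probe sets that carry several gene symbols were left out of the comparisons above. With NNK in A/J, 61 of 1144 such probe sets passed (limma, adjusted over these), and of the 24 with a microRNA symbol, 2 rose, both annotated to Mir344-2 and Mir344, by 0.24 and 0.24.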

How the results depend on the processing

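Counts are of the 128 microRNA genes past the threshold, followed by all genes where those moved by over 1.5 times. Without quantile normalization the A/J week trend gave 15 (all genes 1845, members' median 0.092) and the trend difference 3 (88, median 0.030). Without the filter on dim genes, all genes gave 97 for the difference in NNK change, 5280 for the A/J trend, 85 for the C3H trend and 329 for the trend difference. With a filter at the 50th percentile, which tests fewer genes, the counts were 8 (NNK in A/J), 1 (difference in NNK change), 18 (strain difference), 13 (A/J trend, all genes 2037, median 0.13) and 3 (trend difference, median 0.044). With array weights they were 2 for NNK in A/J (675), 0 for the difference in NNK change (111), 21 for the A/J trend (1678), 4 for the C3H trend (594) and 5 for the trend difference; NNK in C3H gave 31 of all genes. With the strain's arrays alone they were 4 for NNK in A/J (483), 26 for the A/J trend (1710) and 5 for the C3H trend (356), and NNK in C3H gave 41 of all genes. Without week 6 and the week 0 array with skin genes they were 1 for NNK in A/J (492), 0 for the difference in NNK change (5), 29 for the strain difference, 18 for the A/J trend (1415) and 1 for the trend difference (59), and NNK in C3H gave 2 of all genes. With the array median as a covariate, chosen after seeing the data, they were 7 for NNK in A/J, 0 for the difference in NNK change, 2 for the C3H trend (198) and 1 for the trend difference (47), with medians of 0.31 for the A/J trend and 0.28 for the trend difference. With weeks 3 and 12 alone, also chosen then, NNK in A/J gave 0 (64), NNK in C3H 1 of all genes and the difference in NNK change 0 (0, median -0.060), and Mir484 (0.0012) and Mir194-2 (0.073) turned positive in A/J. A pseudocount of 1, the mean over probe sets, trended robust variances and, for the strain and trend differences, untreated arrays alone moved no count by over 1.5 times. Apart from what these settings' own construction shows, the cause was not tested.

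Leaving out 1 array at a time gave 4 to 36 genes for NNK in A/J (all genes 900 to 2963, median -0.14 to -0.08), 0 to 0 for NNK in C3H (4 to 30, median 0.01 to 0.07), 0 to 13 for the difference in NNK change (49 to 1080, median -0.19 to -0.13), 40 to 54 for the strain difference (7894 to 8664, median -0.01 to 0.03), 19 to 50 for the A/J trend (1765 to 4425, median 0.12 to 0.31), 0 to 1 for the C3H trend (13 to 229, median 0.01 to 0.08) and 1 to 14 for the trend difference (43 to 796, median 0.067 to 0.26). The lone array of a group was assumed to vary like the others. The difference between replicates 1 and 2 was correlated between groups (153 pairs of groups, r from -0.38 to 0.42, median 0.017, 47 over 0.1). Whether same-numbered arrays shared more than a number was not tested. The fit with a replicate block gave 13, 0, 2, 50, 44, 1 and 8 genes for the 7 comparisons in the order above.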
